A study of Mus musculus with 8 samples.

Results

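Wildtype T lineage cells were compared with wildtype lineage-negative cells from the same kind of culture, using 5 of the 8 microarrays of the series for the groups themselves. The members are the 2 arrays labelled as Tcf1 wildtype T lineage (Thy1+CD25+) and the 3 labelled as Tcf1 wildtype lineage negative (Mac1-Gr1-Thy1-CD25-). The other 3 arrays, of Tcf1-deficient lineage-negative cells, served to estimate the spread. They also counted in the mean level that chose the probeset of each gene and in the filter for dim probesets. All wildtype cells carried Tcf7+/+ and came from mice of a line backcrossed for about 6 generations and kept on a mixed background. They grew from sorted bone marrow lymphoid primed progenitors during 4 days on OP9-DL4, a stromal line that presents the Notch ligand DL4, with Flt3L at 5 ng/ml and, as the label spells it, IL1 at 1 ng/ml. The lineage-negative arrays are of separate mice, the labels call the T lineage arrays biological replicates, and the age of the mice is not given in the sources used here.

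Early T cell development starts from progenitors that still can become dendritic, natural killer, myeloid or B cells. Notch signalling in the thymus, or on a stroma that presents a Notch ligand, turns on T lineage regulators such as GATA3 and later Bcl11b, and with them the chains of the T cell receptor complex and the recombinase that assembles its variable genes. Cells that take up Thy1 and CD25 on the way are classed as early T lineage precursors, and the alternative programmes are shut down around that stage. In a bulk sample, fewer cells of a type and less RNA per cell cannot be told apart, and this holds for every level below.

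The Thy1 and CD25 gates were visible in their transcripts, and the Mac1 and Gr1 gates were not. These genes are given only as a check of the sort. Il2ra, the gene of CD25, stood at 12.24 and 12.22 in T lineage arrays 1 and 2 and between 6.91 and 7.03 in the lineage-negative arrays, and Thy1 stood at 12.52 and 11.88 against 8.26 to 8.76. Itgam (Mac1) was low in T lineage cells, at 6.25 and 7.04, against 7.81 to 8.34 in cells sorted as Mac1 negative, and Ly6g (Gr1) lay between 4.53 and 4.87 on all 5 arrays. All values are log2 RMA values, in which 1 unit is a 2-fold change, and a level of one gene is not set against that of another. Of the markers that characterise the comparison, Cd3g, Trgv1 and Rag1 were higher in T lineage cells and H2-Aa and Flt3 were lower, with no overlap between the arrays of the groups.

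The T lineage arrays correlated with each other at r = 0.995 over the tested probesets, the lineage-negative arrays at 0.996 to 0.997, and arrays of different groups at 0.973 to 0.98, where probesets are not independent replicates. Xist lay above Eif2s3y, a Y-linked gene, on T lineage array 2 and on 1 of the 3 wildtype lineage-negative arrays, and below it on the others, so each group mixed cells of male and female pattern. None of the 7 sex-linked genes measured passed the test between the groups. The mix within groups widens the spread, as for Xist with a difference of 0.96 (SE 2.45), so this test cannot show that sex is balanced. Of 34 stromal cell genes, which would mark carried-over OP9 cells, 2 were higher, 1 was lower and 31 did not pass. The mean level of all 34 was 6.49 to 6.56 on the lineage-negative and 6.53 to 6.63 on the T lineage arrays.

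Large differences were more often lower than higher in T lineage cells. Of the 21789 probesets tested, 18.0% differed at a limma adjusted p under 0.05, 7.66% higher and 10.4% lower in T lineage cells, and 0.665% were at least 2-fold higher against 2.38% at least 2-fold lower. The split of the small differences depends on the scaling, since calls were 42.5% higher with the deposited values and 51.7% after a second quantile normalization, but the 2-fold calls stayed at 159 higher and 500 lower there, against 145 and 519. With 1 probeset for each gene, 133 genes were at least 2-fold higher and 474 lower, 28 and 126 at least 4-fold, 9 and 44 at least 8-fold, and 3 and 17 at least 16-fold. The list of genes past 16-fold up consists of Cd3g, Trgv1 and the gating gene Il2ra. T lineage arrays lay wholly above the lineage-negative arrays for 28.0% of probesets and wholly below for 19.8%, so absence of overlap alone is common here.

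Regulatory sequence is shown first for the pair of gene groups at the ends of the comparison. Cd3g and Cd3d lie head to head on chromosome 9 with 1355 bases between their annotated starts, and both rose. Below are the 250 bases before each start from RefSeq (GRCm38.p6), 5′ to 3′ on the gene's strand, with E boxes (CANNTG, the class of site that E proteins bind, which reads the same on both strands) in capitals. Cd3g is chr9:44980432-44980681 on the minus strand and Cd3d chr9:44981536-44981785 on the plus strand.
Cd3g: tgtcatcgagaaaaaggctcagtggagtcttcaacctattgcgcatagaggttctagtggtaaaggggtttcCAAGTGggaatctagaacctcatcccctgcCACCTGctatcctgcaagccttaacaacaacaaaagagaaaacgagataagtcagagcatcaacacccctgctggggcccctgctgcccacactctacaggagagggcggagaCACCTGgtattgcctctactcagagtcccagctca
Cd3d: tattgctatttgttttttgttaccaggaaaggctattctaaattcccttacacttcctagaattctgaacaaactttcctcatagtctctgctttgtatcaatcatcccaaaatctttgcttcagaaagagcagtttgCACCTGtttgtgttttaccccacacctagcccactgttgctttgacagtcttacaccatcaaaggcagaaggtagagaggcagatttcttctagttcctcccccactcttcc
Cd3g holds 3 E boxes, starting 178, 148 and 35 bases before the start, and Cd3d holds 1, at 112 bases. Of all 32851 promoters in the table, 66.2% hold at least 1, so the match is a description of these windows.

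MHC class II genes are known to share a promoter module whose Y box carries the letters CCAAT. The windows of H2-Aa (chr17:34287824-34288073, minus strand) and H2-Eb1 (chr17:34305617-34305866, plus strand), both of which fell, are shown with CCAAT, or ATTGG where it lies on the other strand, in capitals.
H2-Aa: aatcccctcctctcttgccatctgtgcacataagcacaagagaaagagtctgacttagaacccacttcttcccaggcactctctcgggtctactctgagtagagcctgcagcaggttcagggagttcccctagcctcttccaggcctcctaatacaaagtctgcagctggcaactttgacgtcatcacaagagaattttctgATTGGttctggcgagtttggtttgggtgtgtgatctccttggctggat
H2-Eb1: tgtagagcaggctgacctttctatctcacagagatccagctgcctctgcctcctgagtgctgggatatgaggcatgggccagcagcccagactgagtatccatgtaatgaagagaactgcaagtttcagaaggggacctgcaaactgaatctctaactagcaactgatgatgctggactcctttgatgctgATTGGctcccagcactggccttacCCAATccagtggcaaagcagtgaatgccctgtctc
The reversed box starts 48 bases before the start in H2-Aa and 59 in H2-Eb1, which has a forward copy at 35. CCAAT in either orientation is in 33.8% of all promoter windows of this length.

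The window of Nrarp, a Notch target that rose, was searched for TGGGAA, the core of the site of the Notch effector, on both strands, and held no match. It is chr2:25180508-25180757 on the plus strand, and 21.6% of all promoter windows hold these letters.
Nrarp: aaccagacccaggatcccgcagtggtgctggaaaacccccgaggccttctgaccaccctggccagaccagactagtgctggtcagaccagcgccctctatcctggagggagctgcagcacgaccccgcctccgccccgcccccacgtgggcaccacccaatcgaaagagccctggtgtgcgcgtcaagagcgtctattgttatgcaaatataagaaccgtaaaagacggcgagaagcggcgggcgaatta

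The T cell receptor complex showed the largest gain. Cd3g, a signalling chain of the complex, read 4.86, 4.85 and 4.72 in the lineage-negative arrays and 11.52 and 10.21 in T lineage arrays 1 and 2, a difference of 6.05 (SE 0.27, limma adjusted p = 1.92e-07), or 66.5-fold. Its partner chain Cd3d read 5.34, 5.20 and 5.14 against 8.94 and 7.26, a difference of 2.87 (SE 0.35, adjusted p = 0.000195). Trgv1, a variable segment of the gamma chain locus, read 7.08, 7.55 and 7.58 against 12.09 and 11.77, a difference of 4.53 (SE 0.16). For all 3 genes every T lineage array lay above every lineage-negative array, and the CD3 chains were higher in T lineage array 1 than in array 2. Cd247, the zeta chain, rose by 0.64 (SE 0.12, adjusted p = 0.00316). Cd3e rose by 0.69, from 7.08, 7.04 and 6.69 to 7.93 and 7.32, which did not pass when T lineage array 1 was left out (0.39, adjusted p = 0.217) or when wildtype lineage-negative array 3 was (0.56, adjusted p = 0.0742). Nor did it pass with the replicate block (0.63, adjusted p = 0.0655) or with all probesets of the table in the fit (adjusted p = 0.077).

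Ptcra, the surrogate alpha chain that pairs with the first rearranged beta chain, did not follow. It read 7.30, 7.02 and 7.04 against 7.14 and 6.97, with overlapping groups and a 95% interval of the difference from -0.28 to 0.15. Of the 6 chains measured, 5 were thus higher, 0 lower and 1 did not pass, with a median difference of 1.78, where the median over all genes was 0.04. Of all genes, 7.74% were called higher and 10.5% lower, and each list count below is to be read beside these shares. The coreceptors were not gained: Cd4 had a difference of 0.01 (interval -0.16 to 0.18) and Cd8b1 of -0.04 (-0.25 to 0.16), and Cd8a fell by 1.03 (SE 0.13).

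**Figure D1:**
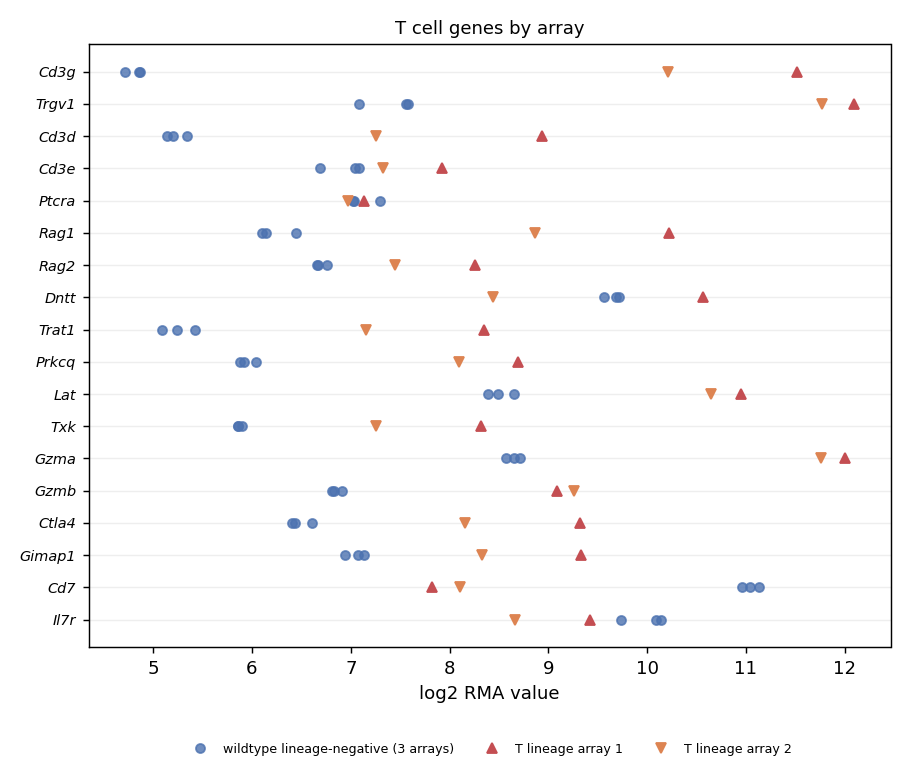
Log2 RMA value (x axis) of T cell genes (y axis) on each array: circles are the 3 wildtype lineage-negative arrays and triangles T lineage arrays 1 (up) and 2 (down). Cd3g and Trgv1 stand far to the right in T lineage cells, Ptcra overlaps, and Dntt lies at 10.57 on T lineage array 1 and 8.44 on array 2, on either side of the lineage-negative arrays.

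Downstream of the receptor, 14 of 27 proximal signalling genes were higher, 5 lower and 8 did not pass (median 0.32). The shares over all genes were 7.74% higher and 10.5% lower. Trat1, an adaptor that associates with the receptor complex, read 5.09, 5.43 and 5.24 in lineage-negative cells and 8.35 and 7.16 in T lineage cells. Prkcq, the kinase PKC-theta, read 6.04, 5.88 and 5.92 against 8.69 and 8.09, and Lat, the membrane adaptor that Zap70 phosphorylates, 8.39, 8.65 and 8.49 against 10.95 and 10.64. The gains were 2.50 for Trat1, 2.45 for Prkcq and 2.29 for Lat, each with non-overlapping groups. Txk, a Tec family kinase, rose by 1.92 and Rasgrp1, a Ras activator, by 1.35. Zap70 itself did not differ measurably, at 0.04 with an interval of -0.14 to 0.23. The Src kinase Fyn fell by 1.13, from between 10.44 and 10.58 to 9.40 and 9.38, and so did Ptpn6, the phosphatase SHP-1 (-0.73). Without T lineage array 1 the list had 10 members higher and 4 lower.

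Cells of either gate use adaptors with the ITAM motif, the tyrosine signal sequence shared by CD3 chains and innate receptors. The CD3 chains rose while Tyrobp (DAP12), which serves natural killer and myeloid receptors, fell by 1.05, from 12.48, 12.49 and 12.53 to 11.13 and 11.77. Fcer1g, the gamma chain of Fc receptors, fell by 0.68 to 9.87 on both T lineage arrays, and the B cell chain Cd79b fell by 0.68. Of the 9 adaptors listed 4 were higher, 3 lower and 2 did not pass, against 7.74% higher and 10.5% lower of all genes.

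Among genes of V(D)J recombination and end joining, 5 of 14 were higher, 1 lower and 8 did not pass (median 0.23), with 3 higher and 2 lower without T lineage array 1. The shares over all genes were 7.74% higher and 10.5% lower. Rag1, a subunit of the recombinase, read 6.10, 6.14 and 6.44 against 10.22 and 8.86, a gain of 3.32 (SE 0.30, adjusted p = 2.3e-05). Rag2, its partner, read 6.76, 6.65 and 6.67 against 8.26 and 7.45, a gain of 1.16 (SE 0.18). Both recombinase genes were above all lineage-negative arrays and higher in T lineage array 1. Xrcc5, a subunit of the Ku complex, rose by 1.84 with 8.77 and 8.62 against 6.77 to 6.92. Lig4, the ligase of end joining, rose by 0.52 (adjusted p = 0.0399), which was lost in 9 alternatives, among them without T lineage array 1 (0.22, adjusted p = 0.365).

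Dntt, the terminal transferase that adds bases at the joins, split the T lineage arrays. It read 9.56, 9.72 and 9.69 in lineage-negative cells, 10.57 in T lineage array 1 and 8.44 in array 2. The difference was -0.15 with an interval of -1.11 to 0.81. With only array 1 kept it was 0.91 (adjusted p = 0.000615) and with only array 2 kept -1.22 (adjusted p = 0.000103). These last p-values assume that the lone T lineage array varies like the arrays of the other groups.

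Of 30 T lineage transcription factors 14 were higher, 4 lower and 12 did not pass (median 0.22). Gata3, which initiates the T programme, read 7.40, 6.93 and 7.17 against 8.98 and 8.70, a rise of 1.68 (SE 0.15). Ets1 rose by 1.29, Zbtb16 (PLZF), a factor of innate-like lymphocytes, by 1.09, Tox by 1.07 and Ikzf2 (Helios) by 1.04. Bcl11b, the factor that closes alternative fates, rose by 0.51 (SE 0.08, adjusted p = 0.00114), with 6.63, 6.64 and 6.53 against 7.12 and 7.09. The arrays of the groups lay apart for both genes. Runx1, at 0.20 (interval 0.00 to 0.41), did not pass. Lef1 rose by 0.64 (adjusted p = 0.0408), with 7.83 on T lineage array 1 and 7.03 on array 2 against 6.70 to 6.92, and it did not pass in 9 alternatives, among them with array 1 left out (0.24, adjusted p = 0.352). Without T lineage array 1 the list had 8 members higher, and without array 2 it had 11 higher and 1 lower.

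E proteins drive lymphoid genes, Id proteins bind and block them, and the genes of each group went both ways. Id2 read 10.26, 10.43 and 10.68 in lineage-negative cells and 8.22 and 7.94 in T lineage cells, a difference of -2.37 (SE 0.13, adjusted p = 9.44e-07). Id3 read 8.17, 8.36 and 8.78 against 6.29 and 6.20, a difference of -2.19 (SE 0.14). Tcf3 (E2A) rose by 0.32 and Tcf12 (HEB) by 0.31, while Tcf4 (E2-2), the E protein of plasmacytoid dendritic cells, fell by 1.83. The shares over all genes were 7.74% higher and 10.5% lower. Of the 9 genes of this family 4 were higher, 3 lower and 2 did not pass. T lineage and lineage-negative arrays were apart for each Id and E protein named. Id1 was among the higher genes of the family, at 0.39. With either T lineage array left out, 2 of the family were called higher. Tcf3 did not pass without either array nor with the replicate block (0.31, adjusted p = 0.063), Tcf12 not without array 1 (0.22, adjusted p = 0.204) and Id1 not without array 2 (0.22, adjusted p = 0.26).

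**Figure D2:**
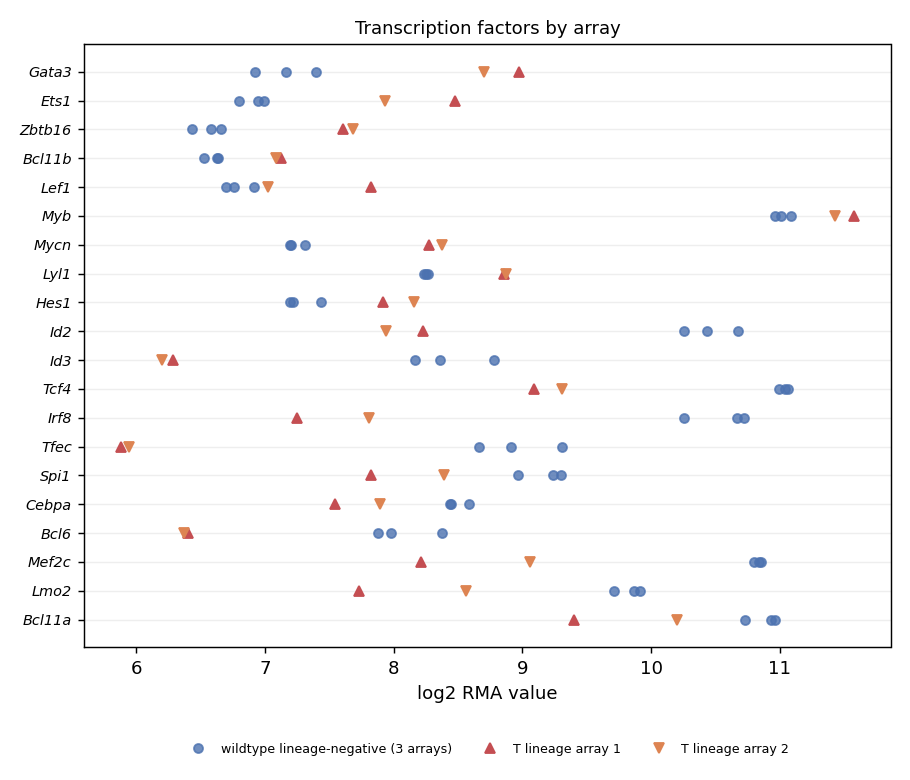
Log2 RMA value (x axis) of transcription factors (y axis) on the 3 wildtype lineage-negative arrays (circles) and T lineage arrays 1 (up triangle) and 2 (down triangle). Gata3, Ets1 and Zbtb16 lie to the right in T lineage cells by more than 1 unit, Bcl11b by 0.51, and Id2, Id3, Irf8 and Tfec lie to the left by more than 2 units.

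Cells of both gates had grown on the same kind of ligand-bearing stroma. Of 18 Notch target genes outside the gate, 2 were higher, 2 lower and 14 did not pass (median 0.01), near the shares over all genes (7.74% higher, 10.5% lower). Hes1, a repressor that Notch switches on directly, read 7.22, 7.20 and 7.43 against 7.91 and 8.16, a rise of 0.75. Nrarp, which feeds back on the pathway, rose by 0.61 with 7.03 and 6.94 against 6.19 to 6.47. Dtx1 had a difference of 0.26 (interval 0.02 to 0.50, adjusted p = 0.132), and it passed only with sex as a covariate (0.29, adjusted p = 0.0392). Notch1 had 0.26 (interval -0.10 to 0.62) and Notch3 0.07 (-0.11 to 0.24). Ccnd1 (cyclin D1, -1.58) and Tspan3 (-0.52) fell.

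In the Notch receptors and machinery 3 of 29 were higher, 4 lower and 22 did not pass (median 0.02). These counts were near the shares over all genes (7.74% higher, 10.5% lower). The Fringe enzymes Mfng and Lfng, which sugar-modify Notch and tune its response to ligands, rose by 0.60 and 0.37, and Notch2 fell by 0.77 with 7.77 and 7.85 against 8.30 to 8.77. Aph1b, a subunit of gamma-secretase, fell by 0.35. The calls of Lfng and Aph1b were each lost in 5 alternatives, among them without either T lineage array, and the list then had 1 member higher.

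Genes of antigen presentation by MHC class II had a median difference of -1.47. Of 16 genes 11 were lower, 10 of them at least 2-fold, 0 were higher and 5 did not pass, and 11 were lower under each alternative tried. H2-Aa read 11.25, 11.28 and 11.59 against 5.60 and 6.40, a difference of -5.37 (SE 0.19, adjusted p = 3.85e-08), or 41.4-fold. H2-Ab1 read 11.07, 11.09 and 11.39 against 6.10 and 6.65, a difference of -4.81, and H2-Eb1, whose promoter is shown above, fell by 3.33 from between 9.71 and 10.18 to 6.60 and 6.62. Cd74, the invariant chain that guards the peptide groove, read 9.51, 9.33 and 9.97 against 5.83 and 5.33, a difference of -4.02. The groups were apart by more than 2 units for each of these 4 genes.

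Genes that act before and after class II transcription behaved unequally. Ciita, the transactivator of the class II promoters, fell by 1.26 (SE 0.14), with 7.84 to 8.33 against 6.88 and 6.72. The subunits of the RFX complex that binds the same promoters were not called: Rfx5 had -0.15 (interval -0.35 to 0.04), Rfxank 0.04 (-0.17 to 0.26) and Rfxap -0.09 (-0.30 to 0.12). Ctss, the protease that trims the invariant chain, fell by 4.03, from 11.48, 11.62 and 11.71 to 6.96 and 8.18, as did H2-DMa, a chain of the peptide editor (-1.84). MHC class I loading did not show such a fall. Of its 14 genes 2 were higher, 0 lower and 12 did not pass (median 0.08). Over all genes 7.74% were called higher and 10.5% lower. B2m, the class I light chain, differed by 0.04 (interval -0.12 to 0.21). The higher genes were Calr and Tap2, at 0.34 each. Without T lineage array 1 neither was called, Calr was not called without array 2 either, and the call of Tap2 was lost in 11 alternatives.

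**Figure D3:**
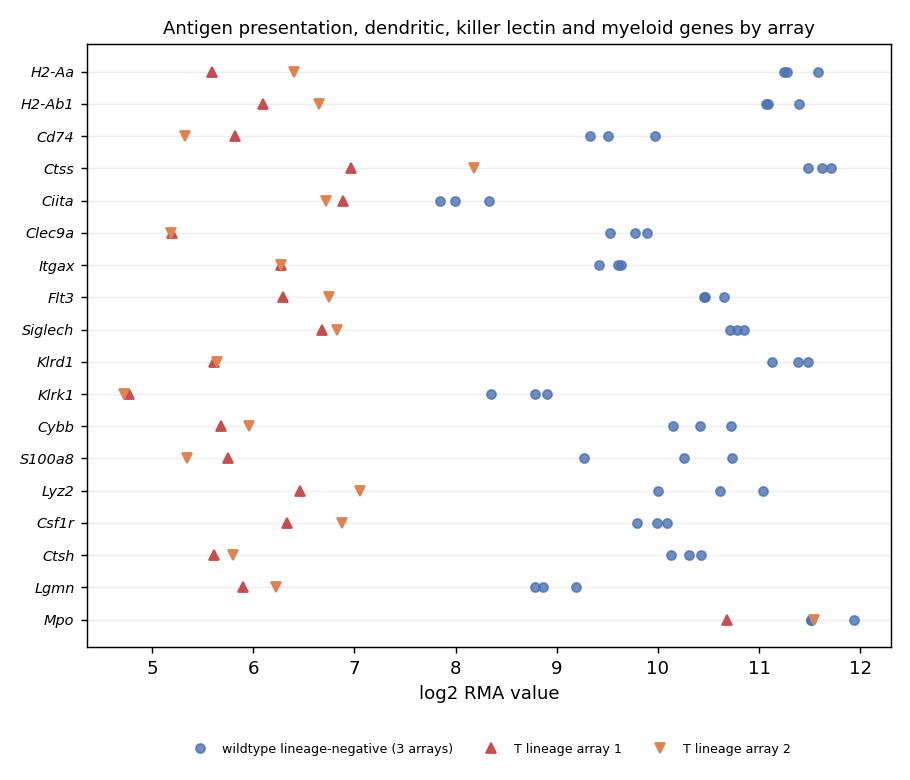
Log2 RMA value (x axis) of antigen presentation, dendritic, killer lectin, myeloid and lysosomal genes (y axis) on the 3 wildtype lineage-negative arrays (circles) and T lineage arrays 1 (up triangle) and 2 (down triangle). H2-Aa and Klrd1 drop from above 11 to between 5.60 and 6.40, while Mpo overlaps between the groups.

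Dendritic cell genes fell in both branches. For conventional dendritic cells 23 of 30 genes were lower, 1 higher and 6 did not pass (median -1.05). Clec9a, the dead-cell receptor of cross-presenting dendritic cells, read 9.52, 9.78 and 9.89 against 5.19 on both T lineage arrays, a difference of -4.54. Itgax (CD11c) fell by 3.28, as did Xcr1, a chemokine receptor of the same subset (-2.30). Flt3, the receptor of the cytokine in the medium, read 10.45, 10.47 and 10.65 against 6.30 and 6.75, a difference of -4.00, or 16-fold. The higher member was Kit, the stem cell factor receptor (0.58). The factors Batf3 (-0.16, interval -0.37 to 0.05) and Zbtb46 (-0.09, -0.28 to 0.10) did not pass, and their groups overlapped.

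For plasmacytoid dendritic cells 18 of 21 genes were lower, 0 higher and 3 did not pass (median -1.25). Siglech, a surface lectin of these cells, read 10.71, 10.78 and 10.85 against 6.68 and 6.83, a difference of -4.02. Tlr7, a sensor of single-stranded RNA, fell by 2.27, as did the endolysosomal nuclease Pld4 (-2.19) and the homing receptor Ccr9 (-1.77). Of 24 Toll-like receptors and accessory genes 13 were lower, 1 higher and 10 did not pass (median -0.40). Ly86 (MD-1) fell by 3.26, as did its partner receptor Cd180 (-2.11) and Unc93b1, which carries nucleic acid sensors to endosomes (-1.48), while Irak3, an inhibitory kinase of this pathway, rose by 1.16.

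Killer cell lectin-like receptors held the largest fall of all genes. Klrd1 (CD94) read 11.13, 11.48 and 11.39 against 5.61 and 5.64, a difference of -5.71 (SE 0.12, adjusted p = 2.4e-09), or 52.2-fold. Klrk1 (NKG2D) fell by 3.93, from between 8.35 and 8.90 to 4.78 and 4.72, as did Klra17 (-3.35). These receptors are best known from natural killer cells, and some also occur on dendritic cells. Of 19 family members 8 were lower, 0 higher and 11 did not pass (median -0.11). Close relatives in this family can share probe sequence, and this was not tested.

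Some cytotoxic granule genes went up. Gzma, a serine protease of killer cells, read 8.65, 8.57 and 8.72 against at least 11.76 on each T lineage array, a rise of 3.24 (SE 0.11, adjusted p = 3.03e-08). Gzmb read 6.91, 6.81 and 6.83 against 9.09 and 9.26, a rise of 2.33, and Nkg7, a granule membrane protein, rose by 1.06. Prf1, the pore protein perforin, did not pass (0.16, interval -0.07 to 0.38). Of 19 granule genes 5 were higher, 2 lower and 12 did not pass (median 0.13). The shares over all genes, for this list and the next, were 7.74% higher and 10.5% lower. Among factors and receptors of natural killer and innate lymphoid cells 7 of 17 were higher, 3 lower and 7 did not pass, and Il17rb, a receptor for IL-25, rose by 1.87 while Nfil3 fell by 0.73.

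Myeloid genes fell unevenly. Of 33 granulocyte and monocyte genes 21 were lower, 19 of them at least 2-fold, 1 was higher and 11 did not pass (median -1.31). S100a8, a calcium-binding protein of neutrophils and monocytes, read 9.27, 10.25 and 10.73 against 5.76 and 5.35, a difference of -4.53 (SE 0.32), with a wide spread among lineage-negative arrays. Lyz2 (lysozyme) fell by 3.79, and Csf1r, the receptor of macrophage colony-stimulating factor, read 9.99, 9.80 and 10.09 against 6.34 and 6.88, a difference of -3.35. Mpo, the granule peroxidase of early granulocyte precursors, read 11.51, 11.51 and 11.94 against 10.69 and 11.54. It did not pass (-0.54, interval -1.09 to 0.02), its groups overlapped, and without T lineage array 2 it was called lower (-0.97, adjusted p = 0.0249). Prtn3 and Elane, granule proteases of the same precursors, fell as well, with -1.21 and -1.44.

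Among the phagocyte oxidase genes, that of the membrane core subunit had the largest fall. Cybb (gp91phox) read 10.15, 10.42 and 10.72 against 5.69 and 5.96, a difference of -4.61, or 24.4-fold. The cytosolic subunits Ncf1 and Ncf4 fell, with -1.25 and -0.46, and Cyba, the membrane partner of Cybb, had -0.41 and did not pass, but was called without wildtype lineage-negative array 2 (-0.55). Of the 7 genes of the complex 3 were lower and 4 did not pass. The call of Ncf4 was lost in 7 alternatives, among them without either T lineage array. Of 11 Fc receptor genes only Fcgr2b (-0.51) and Fcer1g were lower, where 10.5% of all genes were called lower. Of 23 C-type lectin pattern receptors 15 were lower and 3 higher. The 3 were Clec4e (Mincle), with 9.39 and 9.20 against 7.55 to 7.85 and a rise of 1.57, its relative Clec4d (0.73), and Ly75 (DEC-205, 0.89).

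The regulators of these lineages were lower with them. Of 31 myeloid and dendritic transcription factors 17 were lower, 2 higher and 12 did not pass (median -0.41). Irf8, required for dendritic cells and monocytes, read 10.67, 10.25 and 10.72 against 7.25 and 7.81, a difference of -3.01, and Tfec fell by 3.05. Spi1 (PU.1), a factor of myeloid and early progenitor cells, read 9.24, 8.97 and 9.30 against 7.83 and 8.39, a difference of -1.06 (SE 0.16, adjusted p = 0.00111). Cebpa (-0.77) and Bcl6 (-1.69) fell too. The T lineage readings of Irf8 and Spi1 lay below all the lineage-negative ones.

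Stem and progenitor genes went both ways. Among 26 transcription factors 9 were higher, 8 lower and 9 did not pass (median 0.06). Mef2c, a MADS-box factor, fell by 2.19, as did Lmo2 (-1.68) and Bcl11a (-1.07), while Mycn rose by 1.09, Erg by 0.86 and Lyl1 by 0.61. With either T lineage array left out, 5 of these factors were called lower. Among 23 surface genes 2 were higher, 8 lower and 13 did not pass (median -0.11). Kit read 9.53, 9.40 and 9.59 against 9.97 and 10.20, a rise of 0.58 that did not pass without T lineage array 2 (0.47, adjusted p = 0.0601). Cd34 fell by 1.23. Csf2rb, the shared chain of the IL-3 and GM-CSF receptors, fell by 2.42. Cd44, an adhesion receptor that early T cell precursors carry, fell by 1.09. Csf2rb2, a near copy of Csf2rb whose probes may not separate it, fell by 2.44.

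Cytokine receptors of the common gamma family showed a fall of Il7r among small rises. Il7r, the receptor chain for IL-7, read 9.74, 10.14 and 10.09 against 9.42 and 8.66, a difference of -0.95 (SE 0.20, adjusted p = 0.00806) that did not pass without T lineage array 2 (-0.57, adjusted p = 0.0698). Jak1 rose by 0.53, Il15ra and Il2rb by 0.51 each, and Stat5a by 0.50. Il2rb did not pass without T lineage array 1 (0.31, adjusted p = 0.0711). Of 10 genes 4 were higher, 1 lower and 5 did not pass. Among genes of cytokine signalling feedback, Pim1 rose by 0.58, Cish by 0.53 and the cytokines Lif by 1.64 and Osm by 0.83. Bcl6 (-1.69) had the largest absolute difference of that list. In that list 6 of 17 were higher, 2 lower and 9 did not pass.

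Calls were more often lower than higher over all genes too (10.5% against 7.74%). Of 25 T cell surface receptors 4 were higher, 11 lower and 10 did not pass (median -0.11). Ctla4, an inhibitory receptor, read 6.40, 6.43 and 6.60 against 9.32 and 8.15, a rise of 2.26, and Cd160 rose by 1.72. Cd7, an early lymphoid surface protein, read 11.04, 10.96 and 11.13 against 7.82 and 8.10, a difference of -3.08, and Slamf7 (-3.72) and Btla (-2.90) fell too. The costimulatory receptor Cd28 fell by 1.48. Of 27 chemokine and homing receptors 2 were higher, 11 lower and 14 did not pass. The higher ones were Cxcr5 (1.85), with 6.72 and 6.29 against 4.61 to 4.70, and Ccr4 (1.37), and the largest fall was that of Ccr2 (-2.34). Of 17 integrin chains 2 were higher, 7 lower and 8 did not pass, with Itga2b at 1.32 and Itgb2, the shared beta chain of the leukocyte integrins, at -1.44.

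Gimap genes, a cluster of lymphocyte GTPases, rose almost together. Of 8 members 7 were higher, 0 lower and 1 did not pass, with a median of 1.02. Gimap1 read 7.07, 7.13 and 6.94 against 9.33 and 8.33, a rise of 1.78, and Gimap9 rose by 1.49, Gimap5 by 1.30 and Gimap6 by 1.07. Of the 8 genes 7 were higher in T lineage array 1 than in array 2, and without array 1 the count was 5, with Gimap6 among those lost (0.77, adjusted p = 0.0595). In the dim filter, which drops the 40% of probesets with the lowest mean, 3 of the 8 remained and all 3 were higher.

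Lysosomal enzymes and membrane proteins were mostly lower. Of 37 genes 23 were lower, 2 higher and 12 did not pass (median -0.59). Ctsh, a lysosomal cysteine protease, read 10.13, 10.31 and 10.43 against 5.62 and 5.80, a difference of -4.58. Lgmn (legumain) fell by 2.88, as did Psap, the precursor of sphingolipid activators (-2.28). Ctsd, the aspartic protease of the same compartment, rose by 0.46 and the channel Mcoln2 by 1.07. The call of Ctsd was lost in 4 alternatives, among them T lineage array 1 left out (0.26, adjusted p = 0.216). Among enzymes of eicosanoid metabolism 4 of 19 were lower, 2 higher and 13 did not pass, against 10.5% and 7.74% of all genes. Hpgd, which inactivates prostaglandins, read 10.10, 10.63 and 10.85 against 6.02 and 5.91, a difference of -4.57, Hpgds, a prostaglandin D synthase, fell by 1.89, and Alox5, the 5-lipoxygenase, rose by 0.50, which did not pass with T lineage array 2 left out (0.46, adjusted p = 0.0742).

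Interferon-stimulated genes were lower in 13 of 29 cases, higher in 2 and did not pass in 14 (median -0.23). Samhd1, a nucleotide hydrolase that restricts viruses, read 11.64, 11.61 and 11.66 against 9.62 and 10.31, a difference of -1.67, and Mx2 (-1.42) and Mx1 (-1.30) fell too. Of the Ifi200 and Ifitm genes 5 of 11 were lower and 3 higher. In the DNA sensor family the difference was -4.52 for Ifi205 and -3.16 for Ifi209, and Ifitm6 fell by 2.77, while Ifitm2 rose by 0.78 and Ifitm3 by 0.33. Without T lineage array 2 this list had 1 member higher, and Ifitm3 was not called without either array.

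Of 30 genes of ribosome biogenesis and the nucleolus 23 were higher, 0 lower and 7 did not pass (median 0.46), against 7.74% of all genes called higher. Mybbp1a, a nucleolar regulator, read 9.07, 8.70 and 9.10 against 9.90 and 9.96, a rise of 0.98, Polr1b, a subunit of RNA polymerase I, rose by 0.97 and Nop2, an rRNA methyltransferase, by 0.81. No member reached 2-fold. Without T lineage array 2 the count was 12 higher, and 26 of the 30 members read higher on array 2 than on array 1. Amino acid transporters were higher in 8 of 18 cases and lower in 1, with Slc7a3 at 0.81, Slc7a11 at 0.77 and Slc7a5, a transporter of large neutral amino acids, at 0.60. The lower one was Slc36a4 (-1.27). With either T lineage array left out, 4 transporters were called higher, and Slc7a5 was not.

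The counts of this paragraph stand beside 7.74% of all genes called higher and 10.5% lower. In glycolysis and the pentose phosphate pathway 10 of 29 genes were higher, 4 lower and 15 did not pass (median 0.18). Slc16a1, a lactate transporter, rose by 0.96, Pfkfb3, which makes the activator of phosphofructokinase, by 0.83, and Fbp1, a gluconeogenic phosphatase, by 1.23, while Taldo1 (transaldolase) fell by 0.64. Oxidative phosphorylation was nearly level, with 2 of 35 higher, 0 lower and 33 not past the test (median 0.03). Uqcrq (0.48) and Uqcrc1 (0.40) were the 2, and without either T lineage array neither was called. Proteasome subunits were higher in 4 of 30 cases, with a median of 0.09, led by Psmd3 (0.50) and Psmc1 (0.49), with 2 higher without T lineage array 1 and 1 without array 2. The call of Psmd3 was lost in 6 alternatives, among them array 2 left out (0.33). Sterol and fatty acid synthesis split, with 5 of 27 higher, among them the desaturases Scd1 (0.71) and Scd2 (0.68), and 6 lower, among them the mevalonate enzyme Pmvk (-0.59). With either T lineage array left out, 1 gene of this list was called higher, and Scd2 was not called. The lower calls went to 4 without array 1 and 2 without array 2.

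Cell cycle genes did not move as a block, where 7.74% of all genes were called higher and 10.5% lower. Of 31 DNA replication genes 7 were higher, 0 lower and 24 did not pass (median 0.23), with Gins2, a subunit of the replicative helicase, at 0.67 and Orc1 at 0.47. Without T lineage array 2 the count was 2 higher and without array 1 it was 4. Of 27 mitosis genes 5 were lower, 0 higher and 22 did not pass (median -0.04), with Kif23 at -0.65, Cenpf at -0.50 and Mki67 at -0.30. With either T lineage array left out, 2 mitosis genes were called lower, and Mki67 was not. Of 19 D cyclins, their kinases and inhibitors 1 was higher, 5 lower and 13 did not pass (median 0.15). The inhibitors Cdkn1b (p27, -1.11) and Cdkn2c (p18, -0.93), Rb1 (-0.84) and Ccnd1 fell, and Cdk6 rose by 0.53, a call lost in 4 alternatives, among them T lineage array 1 left out (0.43, adjusted p = 0.157). Cdkn2c did not pass without T lineage array 2 (-0.45, adjusted p = 0.0526).

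Bcl2l1 (Bcl-xL), an antiapoptotic protein, read 7.60, 7.34 and 7.51 against 8.74 and 8.75, a rise of 1.26, and Bcl2l11 (Bim), a proapoptotic one, read 7.94, 8.05 and 8.15 against 7.24 and 7.34, a difference of -0.76. Apaf1 fell by 0.66. Of 19 Bcl2 family genes 3 were higher, 4 lower and 12 did not pass, against 7.74% and 10.5% of all genes. In the TNF superfamily 10 of 32 were higher, 4 lower and 18 did not pass, with 7 higher and 1 lower without T lineage array 1 and 6 higher and 2 lower without array 2. The largest rise was that of Tnfsf10 (TRAIL), which read 6.82, 6.80 and 6.93 against 9.43 and 8.70, a rise of 2.21. Tnf rose by 0.93, Ltb by 0.86 and Tnfrsf18 (GITR) by 0.83. Immediate early and heat shock genes were lower in 6 of 22 cases and higher in 2, with Zfp36, which destabilises mRNA of cytokines, at -1.57 and Klf6 at -1.27.

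Markers of other lineages were called at rates near those of all genes (7.74% higher, 10.5% lower). Of 20 B lineage genes 2 were higher (Rag1 and Cd72), 3 lower and 15 did not pass (median 0.04), and the lower ones included Blnk, an adaptor of B cells (-2.04), and Cd22 (-1.16). Of 14 mast cell and basophil genes 1 was higher, 1 lower and 12 did not pass. The higher one was Cpa3, a carboxypeptidase of mast cells, which read 8.25, 8.78 and 8.91 against 11.29 and 10.77, a rise of 2.39 (SE 0.23). The lower one was Prss34, a mast cell protease (-0.65), which did not pass without T lineage array 2 (-0.52, adjusted p = 0.0577). The list's other proteases, Mcpt1, Mcpt2, Mcpt4, Mcpt8, Cma1, Tpsab1 and Tpsb2, had differences between 0.03 and 0.49 and did not pass, although Mcpt8 was called higher with the replicate block (0.61, adjusted p = 0.00952). Of 16 erythroid and megakaryocyte genes 1 was higher, 2 lower and 13 did not pass, the higher one being Itga2b, the integrin chain given above, and the lower ones Car2 (-1.34) and Pf4 (-0.70), of which Pf4 did not pass without either T lineage array.

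**Figure D4:**
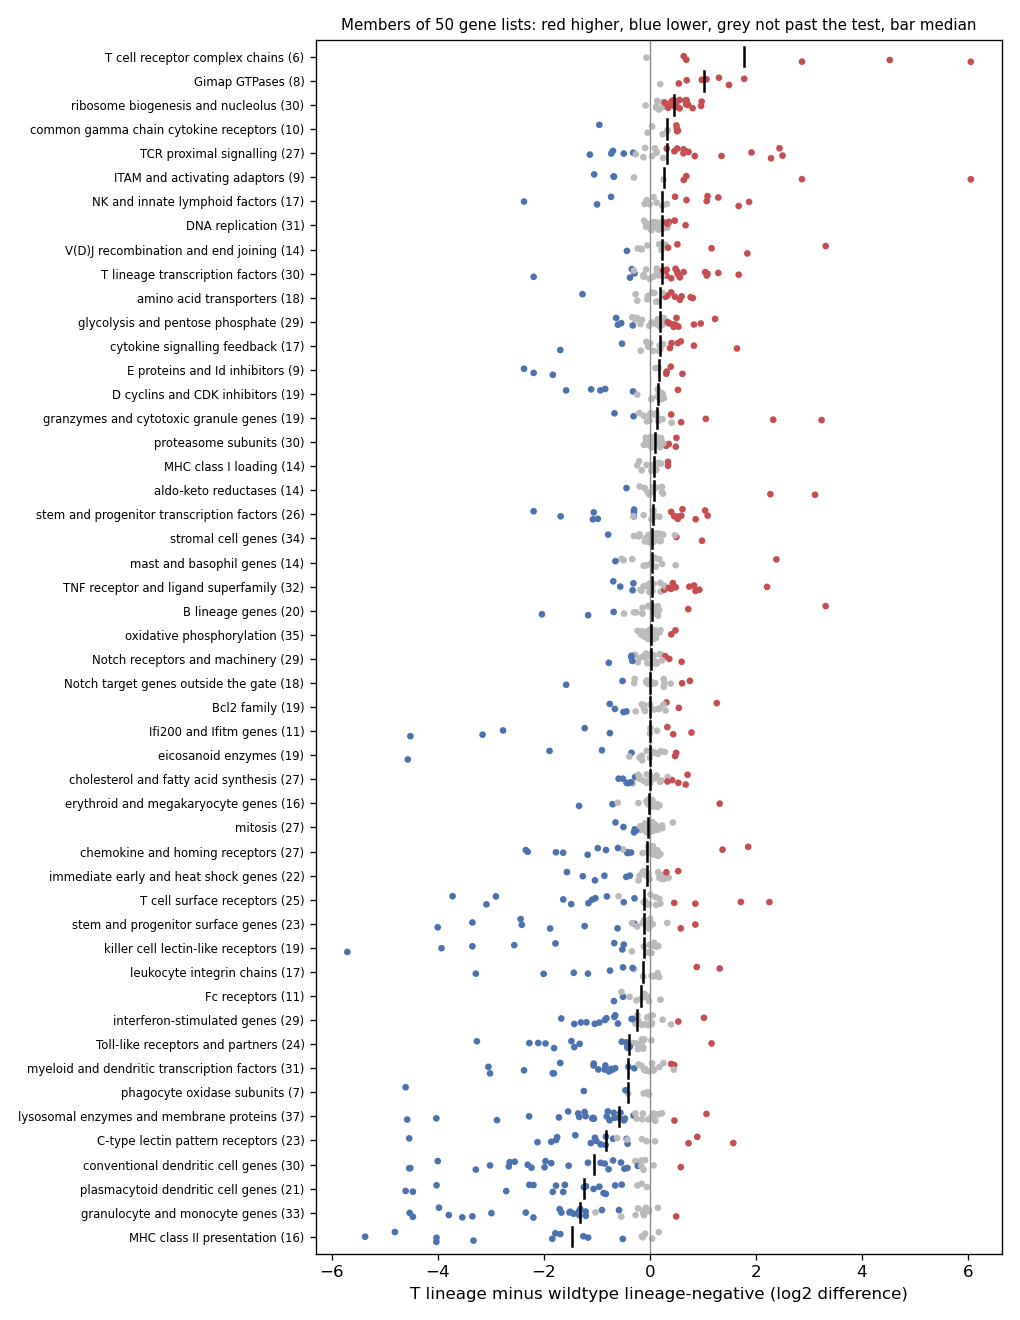
Log2 difference of T lineage minus wildtype lineage-negative cells (x axis) for each member of the gene lists (rows, number of measured members in brackets): red points passed the test higher, blue points lower, grey points did not pass, and the black bar is the list's median. The rows run from MHC class II presentation (-1.47) to the T cell receptor complex chains (1.78), with most medians between -0.5 and 0.5.

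Of the 25 largest rises, 11 belong to no list. Fam20a, a secretory pathway pseudokinase, read 6.06, 5.83 and 5.84 against 10.18 and 8.75, a rise of 3.55. Plxdc2, a membrane protein, read 7.54, 7.92 and 7.78 against 11.24 and 10.83, a rise of 3.29. In a list, Akr1c12, an aldo-keto reductase, read 7.57, 7.67 and 7.61 against 11.18 and 10.28, a rise of 3.12. In the aldo-keto reductase family Akr1c12 and its close relative Akr1c13 (2.27) were the higher ones, 1 was lower and 11 did not pass. Ppic (cyclophilin C) rose by 2.86, Khdc1a by 2.79, the secreted proteoglycan Esm1 by 2.71, Fam169b by 2.6, Sytl3 by 2.31, Gm4827 by 2.27, the neuronal tubulin Tubb3 by 2.21, the mucin Muc13 by 2.12 and Psg17 by 2.12. T lineage arrays lay above all lineage-negative arrays for each, which the rule that chose them requires.

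Among the 25 largest falls, those outside the lists were Nucb2, Kynu, Rnd3, Plbd1, Ms4a4c, Map4k5, Slc49a4 and Aif1. Nucb2, a calcium-binding protein, read 10.94, 11.21 and 11.03 against 5.77 and 6.52, a difference of -4.91. Rnd3 read 11.21, 11.18 and 11.28 against 6.44 and 7.41, a difference of -4.30. Kynu, of tryptophan breakdown, fell by 4.44, as did Plbd1 (-3.99), Ms4a4c (-3.92), the kinase Map4k5 (-3.90), Slc49a4 (-3.85) and Aif1, a macrophage protein (-3.76).

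The T lineage arrays differed from each other in the extent of these changes, which is given as a description since each stands alone. Of the 25 largest rises 23 read higher on array 1, and of the 25 largest falls 17 read lower on array 1. Leaving out 4 sex-linked genes, 23 genes were at least 1 unit higher on array 1 than on array 2, of which 14 were called higher in T lineage cells and 1 lower. Another 9 were at least 1 unit lower on array 1, of which 5 were called lower and 0 higher. The gap was 2.13 for Dntt, 1.68 for Cd3d, 1.36 for Rag1 and 1.30 for Cd3g, and on the other side -1.22 for Ctss and -1.11 for Cd180. The T cell receptor chains had a median of 2.35 over the lineage-negative mean on array 1 and 1.22 on array 2, whereas MHC class II genes had -1.38 and -1.47. Arrays 1 and 2 also differed in the sex pattern given above, and its part in these gaps was not tested.

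**Figure D5:**
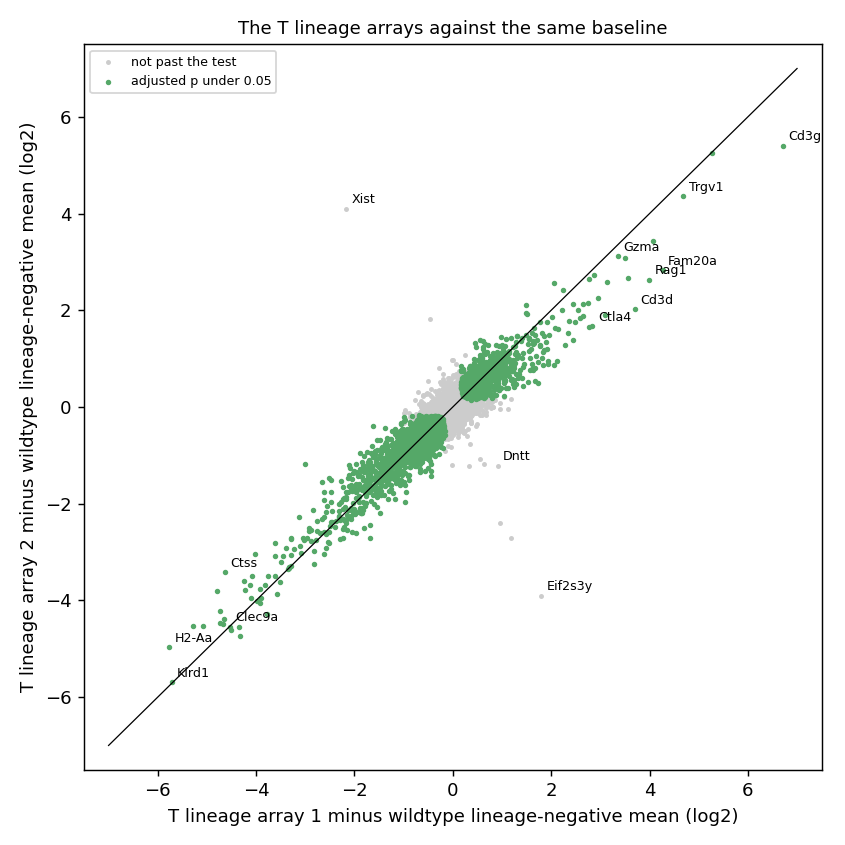
Difference from the mean of the 3 wildtype lineage-negative arrays (log2) on T lineage array 1 (x axis) and T lineage array 2 (y axis), 1 point per gene, green where the adjusted p was under 0.05, with the line of equality. Rising genes such as Cd3g, Cd3d and Rag1 lie below the line, Klrd1 and Clec9a lie close to it, and Xist and Eif2s3y stand off it in opposite directions.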

How the data were processed

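The series holds 8 arrays in 3 groups, and the RNA (10 ng for each array) was amplified before hybridisation, per the labels' protocols. The deposited table holds log2 values made by the authors with RMA in Partek 6.5, per the submitters' processing notes. The log2 scale was read from the values. The sources used here do not give the array's genome build, detection calls or dates. The table's 35399 probesets include 11989 without a listed gene and 1621 with several genes, which were left out. The other 21789 cover 19938 genes, and 99.6% (21698) matched the reference table by gene identifier. The targeted gene was not analysed here.

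limma 3.58.1 in R 4.3.3 (lmFit, eBayes) was fitted on all 8 arrays as 3 groups with 5 residual degrees of freedom. Tests were two-sided. P-values were adjusted by Benjamini-Hochberg across the 21789 probesets, with calls made at an adjusted p under 0.05. Of the 999 genes with several probesets, each is represented by the one of highest mean level over the 8 arrays, and 8 genes had called probesets in opposite directions. The fit was also run on simulated data with independent noise and the same spread in all groups. That run does not cover genes with unequal spread, such as Cd3g (SD 0.92 in T lineage and 0.08 in wildtype lineage-negative arrays). The number of arrays limits the precision, and p-values measure only the spread between these samples.

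The comparison, its members and the 51 gene lists (988 genes measured) were chosen with earlier results of these data known. No set test was made. Genes named were the 25 largest rises and falls with non-overlapping arrays, up to 4 called members of each list (or its 2 largest differences), a fixed panel and the markers; other list members named as examples were chosen after their values were seen. Promoter sequences come from RefSeq, GRCm38.p6. Alternatives changed the arrays, scaling, filter, moderation, weights or block, left out each array, or added a sex covariate.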

Additional observations from a re-analysis of the deposited data

Results flagged for a closer look

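Outside the tested probesets, those listed without a gene also differed between T lineage and wildtype lineage-negative cells. With all 35399 probesets in the fit, 50 of the 11989 without a listed gene were called at least 2-fold higher in T lineage cells and 211 at least 2-fold lower. The 3 largest rises were 4.39 (SE 0.20), 2.86 (SE 0.08) and 2.71 (SE 0.15), with limma adjusted p from 7.92e-06 to 5.63e-05. These probesets have no gene in the annotation used here, so nothing more is said of them.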

How the results depend on the processing

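The main counts were 1670 probesets higher and 2258 lower. The number higher was 1080 with all probesets of the table in the fit. Leaving out each array in turn gave 1009 to 1721 higher and 1645 to 2323 lower, 135 to 184 at least 2-fold higher and 497 to 552 at least 2-fold lower, with the fewest higher calls without T lineage array 2 (1009) or array 1 (1035). The replicate block gave 1480 higher and 1987 lower. Same-numbered T lineage and wildtype lineage-negative arrays deviated together with r of 0.158 and 0.12. With only 2 T lineage arrays their deviations mirror each other, so both values rest on the same difference between them. The unlike-numbered pair of deficient array 2 and T lineage array 1 had r of 0.247. Eif2s3y lay above Xist on array 1 of the T lineage and wildtype lineage-negative groups, and Xist above Eif2s3y on array 2 of both. Sex-linked genes count in these correlations, and their part was not tested. Same-numbered deficient and wildtype arrays had r of -0.13, 0.0169 and 0.0431, but these differ in genotype and cannot decide that pairing. The main fit did not pair the samples, and whether same-numbered samples share a mouse or culture was not tested. The sex covariate, added after the data were seen, gave 1598 higher and 2199 lower. The difference of Dntt was -1.22 without T lineage array 1 and 0.91 without array 2, the reversal among named genes. Of 257 named genes, 41 changed their call under at least 1 alternative. Signal above background was not measured, so low levels have no floor.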
